A study of Mus musculus with 12 samples.

Results

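The array's probe sets for miR-144-3p, miR-451a and miR-486a-5p were followed through ventricular heart tissue of 12 mice. They were chosen by their IDs (MIMAT0000156_st, MIMAT0001632_st and MIMAT0003130_st, in that order), as miRNAs known from red blood cells, and are 3 of 1908 probe sets for mature miRNAs and of 3163 probe sets in all. All 3 were in the table and all 3 were tested, since no filter on low values was possible.

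The mice fell into 4 groups of 3: Clock delta 19/delta 19 mice of 21 months, wild-type (WT) mice of 21 months, Clock delta 19/delta 19 mice of 4 months and WT mice of 4 months. All were on the C57Bl/6J background, and all hearts were taken at ZT 6, that is 6 hours after lights came on. The CLOCK protein drives the daily rhythm of gene activity as a transcription factor, and mice homozygous for this mutation carry an impaired form of it in every tissue, so an effect of the mutation on the heart cannot be told apart from one on blood or on the whole animal. The sex of the mice, and any rinsing of blood from the hearts before freezing, are not stated in the labels.

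Mir144 and Mir451a are copied as parts of one primary transcript, which the erythroid transcription factor GATA1 switches on in red-cell precursors, and miR-451a is among the most abundant miRNAs of mature red cells. Mir486 lies in an intron of Ank1, the gene of the red-cell membrane protein ankyrin, of which muscle uses a shorter form. For that reason miR-486 is known from heart and skeletal muscle as well as from blood. In a whole-tissue extract these miRNAs can come from blood held in the vessels as well as from the tissue, and fewer cells of a type cannot be told apart from less of the miRNA per cell.

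The mature sequences are shown because the first 2 miRNAs come from one transcript and yet share no seed. Of the 3 miRNAs, 2 had a mature sequence in the RefSeq table (GRCm38.p6). The capitals mark the seed, bases 2 to 8, with which a miRNA pairs to its targets.
miR-144-3p, chr11:78073047-78073066, plus strand: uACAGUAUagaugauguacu
miR-451a, chr11:78073186-78073207, plus strand: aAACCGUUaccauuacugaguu
None of the other mature miRNAs among the 1679 names in that table has either seed. Without its last base, the seed of miR-144-3p is shared by 1 of them, miR-101a-3p, and that of miR-451a by 0. The hairpins from which both are cut are shown next, because they show how differently 2 neighbours are made. The mature miRNA is in capitals.
Mir144, chr11:78073005-78073070, plus strand: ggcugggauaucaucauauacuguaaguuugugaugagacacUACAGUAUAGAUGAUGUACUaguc
Mir451a, chr11:78073170-78073241, plus strand: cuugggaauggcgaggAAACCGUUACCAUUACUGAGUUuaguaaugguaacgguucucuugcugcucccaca
The hairpins are separated by 99 bases. MiR-144-3p takes bases 43 to 62 of its hairpin, on the 3′ arm and outside the loop (bases 31 to 36 in the fold of lowest predicted energy). MiR-451a takes bases 17 to 38 and runs through all 4 bases of its loop (35 to 38). That hairpin is known to be cut by Argonaute 2 and not by Dicer, which sets miR-451a apart from nearly all other miRNAs. In the RefSeq gene table, Mir451a overlaps Mir451b on the other strand, and Mir486 on chromosome 8 overlaps Ank1, Gm15816 and Mir3107.

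Values are deposited levels, read as log2, centred so that a probe set's median over the 12 arrays is 0. A value of 1 is 2-fold above that median. Since the absolute signal is gone, no miRNA's level can be set against another's, and how far each lay above background is unknown. The standard deviation (SD) of an array over the mature probe sets lay between 0.317 and 0.521. Clock 21-month replicate 2 had the highest, and the next was 0.445, so values that move most with that heart are also given without it. The table pairs no ID with a name, so miRNAs of white cells, heart muscle, endothelium or fibroblasts could not be set beside these 3, and the tissue label was not checked.

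The hearts differed most in miR-451a and least in miR-486a-5p. Over the 12 hearts the SD of miR-451a was 0.469, above that of 77.9% of the mature probe sets, whose median SD was 0.272. From its lowest to its highest heart it covered 1.60 on the log2 scale, a 3.02-fold range. The SD of miR-144-3p was 0.168, above 14.2% of probe sets, and it covered 0.57 (1.49-fold). MiR-486a-5p had an SD of 0.103, above only 1.89% of probe sets, and covered 0.31 (1.24-fold). Without Clock 21-month replicate 2 the SDs were 0.388 for miR-451a, 0.162 for miR-144-3p and 0.0913 for miR-486a-5p, with the order kept. That heart was also the lowest in miR-451a, at -0.94, and the next lowest was at -0.55. Without it the range of miR-451a was 1.21 on the log2 scale, or 2.32-fold.

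**Figure D1:**
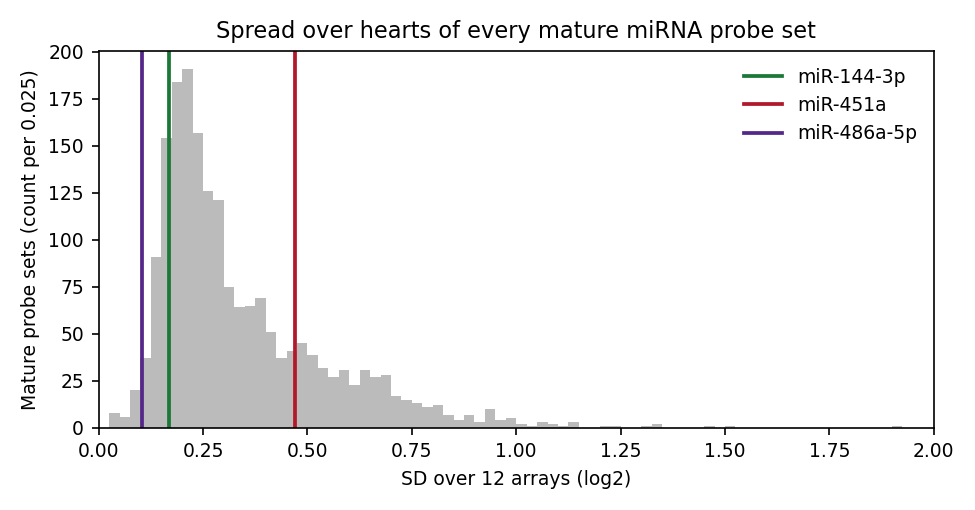
Histogram of the SD over the 12 hearts (x axis, log2 scale, in bins of 0.025) of all 1908 mature miRNA probe sets (y axis, count), with a vertical line for each red-cell miRNA. MiR-451a lies at 0.469, on the upper side of the distribution, miR-144-3p at 0.168 and miR-486a-5p at 0.103, near its lower end.

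MiR-451a, known to act on Ywhaz in red-cell precursors and described in mouse heart muscle as well, had the largest difference between ages of the 3 miRNAs. In Clock hearts of 21 months it was at 0.45, -0.94 and -0.30 in replicates 1, 2 and 3, and in WT hearts of 21 months at -0.26, -0.55 and 0.0024. In Clock hearts of 4 months it was at 0.49, -0.0024 and -0.30, and in WT hearts of 4 months at 0.66, 0.28 and 0.21. All 3 WT hearts of 21 months lay below all 3 WT hearts of 4 months, as at 4.72% of mature probe sets. The Clock hearts of both ages overlapped, with 1 high heart at each age. The group means were -0.26 ± 0.69 in Clock 21-month, -0.27 ± 0.28 in WT 21-month, 0.063 ± 0.40 in Clock 4-month and 0.38 ± 0.24 in WT 4-month hearts (SD, n = 3 each). In order from the lowest, these were WT 21-month, Clock 21-month, Clock 4-month and WT 4-month, and no neighbours in this order differed by more than the larger of their SDs.

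In WT hearts the difference of miR-451a between 21 and 4 months was -0.65 (SE 0.33, 95% interval -1.37 to 0.068), which is 1.57-fold lower at 21 months. This did not pass the test over all mature probe sets (limma, adjusted p = 0.86). An adjusted p under 0.05 was reached by 0.0524% of the mature probe sets in this comparison. Such a separation of the groups, all old hearts below all young ones, was found at 4.72% of mature probe sets. In Clock hearts the difference was -0.33 (SE 0.33, interval -1.04 to 0.39, adjusted p = 0.803), where 0.105% of probe sets passed. It moved with single hearts. Without Clock 21-month replicate 2 it was 0.011 (adjusted p = 0.991), and without Clock 21-month replicate 1 it was -0.68 (adjusted p = 0.495).

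Averaged over genotypes, miR-451a differed by -0.49 between 21 and 4 months (SE 0.23, interval -0.995 to 0.020), or 1.40-fold lower at 21 months. Of the 6 hearts of 21 months 2 lay above the miRNA's median, against 4 of the 6 hearts of 4 months. The unadjusted p was 0.058 in limma, with a smaller p at 11.9% of the mature probe sets, and 0.075 in an exact permutation of age labels within each genotype (2-sided, 400 exchanges). The adjusted p over all mature probe sets was 0.482, and 0.105% of them passed. Without Clock 21-month replicate 2 the difference was -0.32 (adjusted p = 0.585). The age differences of the 2 genotypes were not shown to differ (interaction 0.32, SE 0.46, interval -0.69 to 1.34, adjusted p = 0.99, where 0.0% of probe sets passed). The interaction was 0.66 without Clock 21-month replicate 2 and -0.031 without Clock 21-month replicate 1.

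**Figure D2:**
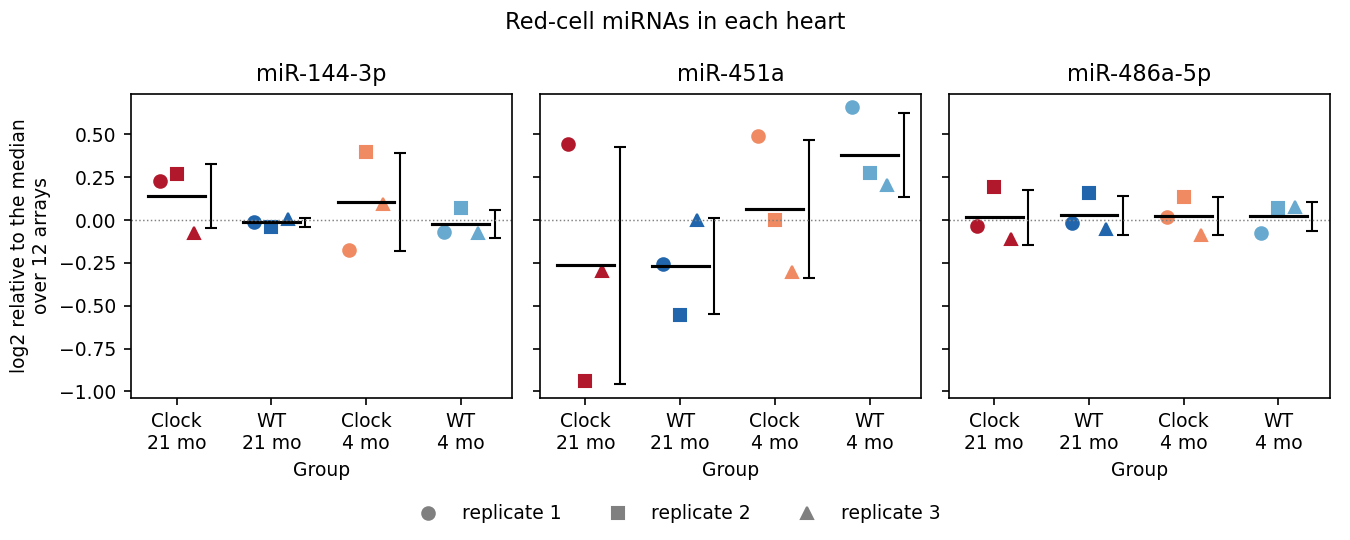
Level of each red-cell miRNA (y axis, log2 relative to its median over 12 arrays) in each heart, by group (x axis); symbols give the replicate number, horizontal bars the group mean, and vertical bars the mean ± SD of 3 hearts. For miR-451a all 3 WT hearts of 21 months lie below all 3 WT hearts of 4 months, as at 4.72% of mature probe sets. Its Clock hearts spread from -0.94 to 0.49, and miR-486a-5p stays between -0.11 and 0.20 in every heart.

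No difference of miR-451a between genotypes passed the test at either age. At 21 months the Clock mean minus the WT mean was 0.0060 (SE 0.33, interval -0.71 to 0.72, adjusted p = 0.998). It was 0.34 without Clock 21-month replicate 2 (adjusted p = 0.965) and -0.35 without Clock 21-month replicate 1. At 4 months it was -0.32 (SE 0.33, interval -1.04 to 0.40, adjusted p = 0.936). This was -0.53 without Clock 4-month replicate 1 and -0.13 without Clock 4-month replicate 3. Averaged over ages it was -0.16 (SE 0.23, interval -0.66 to 0.35, adjusted p = 0.909), and 0.013 without Clock 21-month replicate 2 (adjusted p = 0.994) or -0.33 without Clock 21-month replicate 1. In each of these 3 genotype comparisons 0.0% of all mature probe sets passed. The intervals at 4 months, and for the age difference in either genotype, reach past a 2-fold difference, so a 2-fold difference is not excluded by these hearts.

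MiR-144-3p, which in human red-cell precursors is known to act on the regulator of antioxidant genes NRF2, was close to level across ages and a little higher on average in Clock hearts. In Clock hearts of 21 months it was at 0.23, 0.27 and -0.073 in replicates 1, 2 and 3, and in WT hearts of 21 months at -0.0089, -0.040 and 0.0089. In Clock hearts of 4 months it was at -0.17, 0.40 and 0.091, and in WT hearts of 4 months at -0.068, 0.073 and -0.074. The 3 highest hearts of all were Clock hearts that had 0.23 or more, but the lowest heart was a Clock heart as well, and the genotypes overlapped at each age. Group means were 0.14 ± 0.19 in Clock 21-month, -0.013 ± 0.025 in WT 21-month, 0.11 ± 0.29 in Clock 4-month and -0.023 ± 0.083 in WT 4-month hearts (SD, n = 3 each). The order from the lowest was WT 4-month, WT 21-month, Clock 4-month and Clock 21-month, with no neighbours apart by more than the larger of their SDs.

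The difference of miR-144-3p between Clock and WT hearts was 0.15 at 21 months (SE 0.16, 95% interval -0.20 to 0.51, limma adjusted p = 0.928) and 0.13 at 4 months (SE 0.16, interval -0.22 to 0.48, adjusted p = 0.96). At 21 months it was 0.091 without Clock 21-month replicate 2 (adjusted p = 0.988) and 0.26 without Clock 21-month replicate 3. At 4 months it changed sign, to -0.018, without Clock 4-month replicate 2 and was 0.27 without Clock 4-month replicate 1. Averaged over ages it was 0.14 (SE 0.11, interval -0.11 to 0.39), or 1.10-fold, with a limma adjusted p of 0.802. The unadjusted p was 0.236 in limma and 0.185 in an exact permutation of genotype labels within each age (2-sided). This permutation p was 0.555 after adjustment over 6 such tests. This average was 0.068 without Clock 4-month replicate 2 and 0.21 without Clock 4-month replicate 1. Of the 6 Clock hearts 4 lay above the median, against 2 of the 6 WT hearts. Between 21 and 4 months it differed by 0.035 in Clock (SE 0.16, interval -0.32 to 0.39) and by 0.0096 in WT (SE 0.16, interval -0.34 to 0.36). Averaged over genotypes this was 0.022 (interval -0.23 to 0.27, adjusted p = 0.959), and the interaction was 0.025 (interval -0.47 to 0.52, adjusted p = 0.99). These intervals leave out a 2-fold difference of the array signal in either direction in all 7 comparisons.

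Hearts of the same group differed more in miR-144-3p among Clock than among WT mice. The within-group SD was 0.242 in Clock and 0.0613 in WT hearts, a ratio of 3.94, and 97.4% of the mature probe sets had a lower ratio. For miR-451a these SDs were 0.566 and 0.262, a ratio of 2.16, above that of 86.0% of probe sets. For miR-486a-5p the ratio was 1.38, above that of 64.7%. Over all mature probe sets the median ratio was 1.10, and the median within-group SD was 0.261 in Clock and 0.242 in WT hearts. The SD of miR-144-3p thus lay below the median in both genotypes, and further below it in WT hearts. The ratio of miR-144-3p lay between 3.04 (without Clock 4-month replicate 2) and 11.8 (without WT 4-month replicate 2) when each heart was left out. That of miR-451a lay between 1.60 (without Clock 21-month replicate 1) and 2.51 (without WT 21-month replicate 2). That of miR-486a-5p fell below 1, to 0.959, without Clock 21-month replicate 2, and was 1.94 without WT 21-month replicate 2. Each SD has 4 degrees of freedom, the ratio was looked at after the values were seen, and it was not tested.

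MiR-486a-5p, which is known to act on Foxo1 in muscle, stayed within 0.20 of its median in every heart. In Clock hearts of 21 months it was at -0.036, 0.20 and -0.11 in replicates 1, 2 and 3, and in WT hearts of 21 months at -0.020, 0.16 and -0.052. In Clock hearts of 4 months it was at 0.020, 0.14 and -0.086, and in WT hearts of 4 months at -0.076, 0.068 and 0.075. Every group held hearts on both sides of the median, and the groups overlapped in every comparison. The 4 group means lay between 0.017 ± 0.16 in Clock 21-month and 0.029 ± 0.11 in WT 21-month hearts (SD, n = 3), with 0.024 ± 0.11 in Clock 4-month and 0.023 ± 0.085 in WT 4-month hearts, so the order of the groups is within their spread.

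The averaged difference of miR-486a-5p between 21 and 4 months was -0.00057 (SE 0.093, 95% interval -0.21 to 0.20, limma adjusted p = 0.999). That between Clock and WT hearts was -0.0053 (SE 0.093, interval -0.21 to 0.20, adjusted p = 0.992). As ratios, the interval ran from 0.867 to 1.15 for 21 over 4 months and from 0.864 to 1.15 for Clock over WT. Within single ages or genotypes, differences lay between -0.012 and 0.0060, with all interval ends between -0.30 and 0.30, and the interaction was -0.013 (interval -0.42 to 0.40). Without Clock 21-month replicate 2, the largest of these was the interaction, at -0.10 (adjusted p = 0.981).

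**Figure D3:**
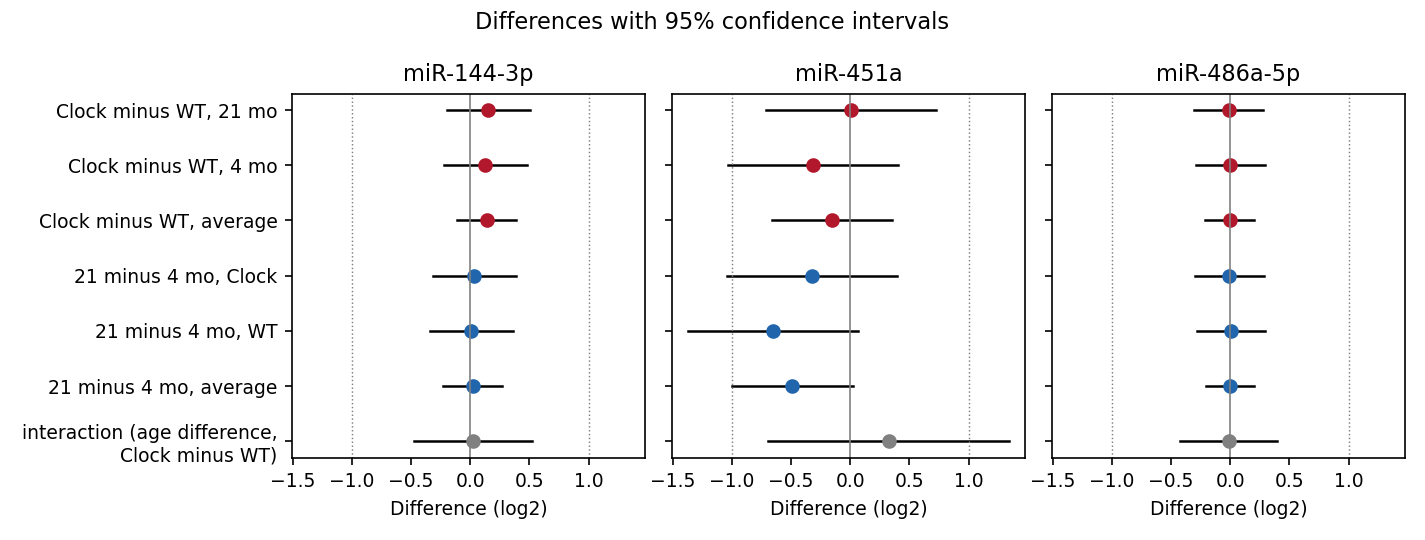
Differences between groups (x axis, log2) for each red-cell miRNA, with points for the fitted difference and lines for its 95% confidence interval from limma; dotted lines mark a 2-fold difference, and rows give Clock minus WT, 21 minus 4 months and their interaction. Every interval covers 0; that of miR-451a for 21 minus 4 months reaches furthest below it, to -1.37 in WT hearts.

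Counted together, the 3 miRNAs gave 0 calls at an adjusted p under 0.05 in 21 tests (limma, 7 comparisons each), and 0 at an unadjusted p under 0.05. Over all mature probe sets, an unadjusted p under 0.05 was reached by 5.87% for Clock against WT at 21 months, 6.03% at 4 months and 6.13% averaged over ages. It was reached by 9.85% for 21 against 4 months in Clock, 5.61% in WT and 11.0% averaged over genotypes, and by 4.19% for the interaction. In 17 of the 21 tests the interval left out a 2-fold difference in either direction, and the other 4 were all of miR-451a. Since the height above background is unknown, these intervals bound the array signal and not necessarily the miRNA's own change. The median of the 3 differences between 21 and 4 months, averaged over genotypes, was -0.00057, beside 0.038 over all mature probe sets. For Clock against WT averaged over ages it was -0.0053, beside 0.0065. Both medians of the 3 are the values of miR-486a-5p. In the same order, miR-451a had -0.49 and -0.16, and miR-144-3p had 0.022 and 0.14.

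No pair of the 3 miRNAs had a correlation over hearts that passed the test. MiR-144-3p and miR-451a, from one transcript, had a Pearson correlation of -0.278 over the 12 hearts (permutation p = 0.38, adjusted p = 0.38 over 3 pairs) and a Spearman correlation of -0.343 (permutation p = 0.274). They lay on the same side of their medians in 6 of 12 hearts. In Clock 21-month replicate 2, miR-451a had its lowest value of all hearts (-0.94) while miR-144-3p had its second highest (0.27) and miR-486a-5p its highest (0.20). Without this heart the correlation of miR-144-3p with miR-451a was -0.0442 (permutation p = 0.90).

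MiR-451a and miR-486a-5p correlated at -0.421 (permutation p = 0.171, adjusted p = 0.27; Spearman -0.266, permutation p = 0.40), and at -0.142 without Clock 21-month replicate 2. MiR-144-3p and miR-486a-5p correlated at 0.416 (permutation p = 0.18, adjusted p = 0.27; Spearman 0.252, permutation p = 0.43), and at 0.262 without that heart. The permutation p of each of the 3 Spearman correlations was 0.43 after adjustment over the pairs. Each of these 2 pairs also lay on the same side in 6 of 12 hearts. Taken on deviations from the group means, the 3 correlations were -0.239, -0.526 and 0.481 in the order given (exact permutation within groups, p = 0.55, 0.235 and 0.245). Without the 2 hearts farthest from the median of the first miRNA of each pair they were -0.00554, 0.0139 and -0.162. A p that misses the threshold does not show that a pair is unrelated. All values share the normalization of their array, and the labels name no extraction or scan batch.

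**Figure D4:**
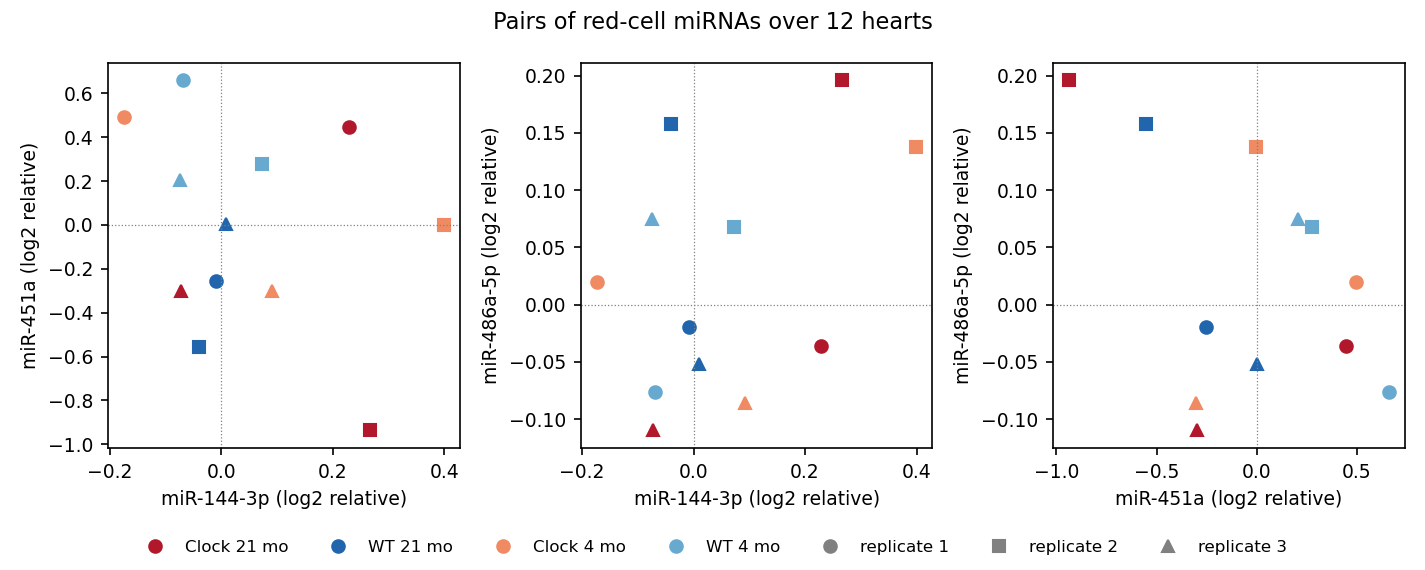
Each panel plots one red-cell miRNA against another (both axes log2 relative to the median over 12 arrays), with a point per heart, colours for the 4 groups and symbols for the replicate number. The heart with the lowest miR-451a (-0.94) has the highest miR-486a-5p (0.20).

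Likeness to the other mature probe sets was measured as Pearson's r over the 12 hearts, as a description. Among the 1907 other probe sets ordered by their likeness to miR-144-3p, miR-451a had rank 1461 and miR-486a-5p rank 222. These ranks rest on an r of -0.278 and of 0.416 over all 12 hearts, where the median r was -0.0323. Without Clock 21-month replicate 2 the r was -0.0442 with miR-451a and 0.262 with miR-486a-5p, so the ranks depend on that heart. The nearest to miR-144-3p was MIMAT0014846_st (r = 0.798) and the nearest to miR-451a was MIMAT0003502_st (r = 0.837). Without Clock 21-month replicate 2 these were 0.829 for the first and 0.749 for the second. MiR-486a-5p had a near double in MIMAT0014943_st, with r = 0.9999 and values never more than 0.0037 apart in any heart. The next probe set had r = 0.847. An r over 0.8 was found with 0 probe sets for miR-144-3p, with 3 for miR-451a and with 6 for miR-486a-5p, the near double included. The files give no name to these IDs, so whether the near double reads a separate miRNA or the same sequence is not known.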

How the data were processed

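MiRNA was measured by array in 12 hearts. Per the labels' protocols, hearts were snap frozen, total RNA was extracted by miRNeasy and 500 ng were labelled with biotin by an Affymetrix procedure. The deposited values were taken as log2 levels. The authors had centred each of the 3163 probe sets on its median, which is 0 within 1e-06. No label or header states the log base, the background correction or the normalization. With another base the folds would change, and the tests would not.

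Limma 3.58.1 (R 4.3.3) fitted 1 mean per group to the 1908 mature probe sets of all 12 arrays (8 residual degrees of freedom), with Benjamini-Hochberg adjustment within each of 7 comparisons. The fit was tested on simulated data. Correlations used 100000 permutations, or, within groups, 1296 exact ones. Hairpins were folded with RNAfold 2.7.2. Each array was counted as 1 mouse because the labels speak of biological replicates, and the number of arrays limits the precision.

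The miRNA names came with the choice of the 3 IDs and were not checked. By the naming rule the 3 miRNAs, their copies, their nearest probe sets and listed cell-type miRNAs were to be named. Neither the table nor the RefSeq tables pair IDs with names, so the copies, hairpins and lists were not tested and only the nearest IDs are given. The members and lists were chosen with earlier results of these data known. Alternatives were quantile normalization, centring of arrays, a fit to the compared groups alone, a replicate block, array weights, precursors included, and leaving out each array. The exact permutation of the averaged differences was added after seeing the data.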

Additional observations from a re-analysis of the deposited data

How the results depend on the processing

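Under 375 repeats of the 21 tests of these miRNAs with another setting, 0 crossed the threshold (lowest adjusted p 0.196, for miR-451a between 21 and 4 months averaged over genotypes without Clock 21-month replicate 1; lowest unadjusted p 0.00637) and 56 changed sign, all of them differences that had not passed; the cause was not tested. After quantile normalization the difference between 21 and 4 months of miR-144-3p was -0.020 in WT, -0.030 in Clock and -0.025 on average, with an interaction of -0.011. That of miR-486a-5p in WT was -0.031, and its Clock minus WT difference at 4 months was -0.00030. With arrays centred on their median, 21 minus 4 months in WT was -0.0040 for miR-144-3p and -0.0077 for miR-486a-5p, and Clock minus WT at 21 months was -0.0018 for miR-451a. For miR-451a, array weights gave 0.012 for 21 minus 4 months in Clock, 0.31 for Clock minus WT at 21 months, -0.030 for that averaged over ages and 0.67 for the interaction, and quantile normalization gave 0.15, -0.093 and 0.48 for the last 3. The correlations without the 2 farthest hearts were -0.162 (miR-144-3p with miR-486a-5p) and 0.0139 (miR-451a with miR-486a-5p).

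Leaving out each heart in turn, the difference of miR-451a between 21 and 4 months kept its sign in WT (-0.79 to -0.51) and on average (-0.67 to -0.32), but not in Clock (-0.68 to 0.011). Its interaction ran from -0.031 to 0.66, and its Clock minus WT difference from -0.35 to 0.34 at 21 months, from -0.53 to -0.13 at 4 months and from -0.33 to 0.013 on average. For miR-144-3p, Clock minus WT ran from -0.018 to 0.27 at 4 months, from 0.091 to 0.26 at 21 months and from 0.068 to 0.21 on average, while 21 minus 4 months ran from -0.016 to 0.058 in WT, from -0.105 to 0.18 in Clock and from -0.048 to 0.096 on average, with an interaction of -0.11 to 0.17. For miR-486a-5p, Clock minus WT ran from -0.056 to 0.056 at 4 months, from -0.10 to 0.053 at 21 months and from -0.050 to 0.027 on average. Its difference between 21 and 4 months ran from -0.058 to 0.046 in WT, from -0.097 to 0.056 in Clock and from -0.045 to 0.031 on average, with an interaction of -0.10 to 0.051.

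Over all mature probe sets, correlations of same-numbered deviations ran from -0.11 to 0.12, so the replicate numbers were not taken to pair the hearts. This check cannot exclude a replicate effect in single miRNAs. Replicate 2 of miR-486a-5p lay above the median in every group, at 0.20 in Clock 21-month and 0.16 in WT 21-month hearts. In Clock 4-month and WT 4-month hearts it was at 0.14 and 0.068. How many mature probe sets show such a pattern was not counted, so no conclusion is drawn from it, and the cause was not tested. With the replicate number as a block, the averaged difference of miR-451a between 21 and 4 months kept its value of -0.49 (SE 0.18, limma, adjusted p = 0.32), and no call on these miRNAs changed. Over all mature probe sets the count of calls for age moved with the processing. In WT it was 1, against 2 at an adjusted p under 0.10 or with array weights, 0 after quantile normalization or with the block, and 0 to 2 without 1 array. In Clock it was 2, against 4 at an adjusted p under 0.10, 1 with the block, and 0 to 5 without 1 array. Averaged over genotypes it was 2, against 17 at an adjusted p under 0.10, 13 with array weights, 5 with the block, and 1 to 6 without 1 array. For genotype at 4 months it was 0, and 1 without WT 4-month replicate 1.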
